A study of Mus musculus with 6 samples.

Results

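The cells described here were nondividing effector CD8 T cells from mouse melanoma that expressed granzyme B or perforin and carried at most 1 UMI of the granzymes Gzmc, Gzmd, Gzme and Gzmf. They were chosen barcode by barcode from the deposited matrices. A barcode had to hold 600 to 4000 genes and at most 10% mitochondrial UMIs, at least 2 UMIs of Cd3d, Cd3e and Cd3g together, at least 1 UMI of Cd8a and Cd8b1, no Cd4 UMI, at least 2 UMIs of Gzmb and Prf1, at most 1 UMI of Mki67 and Top2a, no UMI of Cd79a, Cd79b or Ms4a1, and at most 1 UMI of the C1q genes. In all, 699 barcodes met the rule, out of 30067 that passed the limits on genes and mitochondrial UMIs and 52899 deposited. By the same limits there were 3851 T cells and 2209 CD8 T cells. Of the CD8 T cells, 52 met the effector rule but had 2 or more UMIs of Gzmc to Gzmf. Another 845, called other CD8 T cells below, met it except that they had fewer than 2 UMIs of Gzmb and Prf1. The remaining CD8 T cells exceeded the limit on Mki67 and Top2a, or exceeded that on Gzmc to Gzmf without the effector UMIs, and were in no class. The rule used the UMIs of 20 genes, so the levels of those genes are given as a description and their tests are not reported.

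CD45+ cells were enriched with magnetic beads from B16-F10 melanomas grown in female C57BL/6 mice aged 6 to 10 weeks, and 3 samples came from mice given αPD-1 and 3 from mice given αPD-1 + corin. Corin inhibits the CoREST complex, a chromatin repressor that joins the demethylase LSD1 to the deacetylases HDAC1 and HDAC2. In both groups the mice received 150 μg of αPD-1 antibody 3 times a week from day 7 after inoculation, and in the combination group they also received 200 μg of corin daily from day 6, where the other mice had the vehicle, 5% DMSO. Each treatment arm had 10 mice. Nothing in the labels says which mice gave a sample or whether mice were pooled, so the p-values measure the spread between these samples. The comparison asks whether adding corin changed the number or the state of the effector cells.

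Cytotoxic CD8 T cells kill by releasing perforin, which opens the target membrane, and granzymes, serine proteases that enter and trigger cell death. In tumors, CD8 T cells that meet antigen for a long time keep part of this machinery while they take on inhibitory receptors such as PD-1, Tim-3 and Lag-3 and the factor Tox, and lose the stem-like factors Tcf7 and Lef1. Each T cell clone carries its own rearranged receptor, and cells of a clone share its V segments, which unrelated clones can also use.

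The label was checked against its markers. Levels are UMIs summed over the effector cells of a sample and given as CPM, that is, scaled to the total UMIs of that sum. Cd8a stood at 661, 711 and 562 CPM in αPD-1 replicates 1 to 3 and at 375, 560 and 679 CPM in αPD-1 + corin replicates 1 to 3, and values are given in this order throughout. Gzmb (GRCm39 chr14:56496295-56499717) stood at 1551, 1128 and 978 CPM and at 1154, 1128 and 1673 CPM. Prf1 (chr10:61133546-61140461), which encodes perforin, stood at 624, 635 and 437 CPM and at 154, 742 and 612 CPM. The groups overlapped in these 3 genes, which the rule used, and αPD-1 + corin replicate 1 was lowest in Cd8a and Prf1. Of the markers outside the rule, Ccl5, a chemokine of effector and memory CD8 T cells, ranged from 4405 to 7799 CPM, Cxcr6, a receptor that holds T cells in tissue, from 272 to 440 CPM, and Gzmk, a granzyme of less differentiated effectors, from 70.4 to 233 CPM. A Ccl5 UMI was found in 80.0% to 94.4% of the effector cells after each was thinned to 1000 UMIs, a Cxcr6 UMI in 20.0% to 39.4% and a Gzmk UMI in 8.0% to 30.2%. The same shares in C1q-expressing cells without Cd3 UMIs were 2.69% to 16.3%, 0.0240% to 0.260% and 0% to 0.192%, with 18 of these cells left out as too shallow. Whether the Ccl5 UMIs of these cells were their own was not tested. In other CD8 T cells the shares were 25.8% to 86.2%, 5.75% to 20.6% and 1.32% to 12.7%, with 4 cells left out. The markers were therefore present in every sample, with Gzmk in a minority of the thinned cells.

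The effector UMIs varied widely among the cells. The median sum of Gzmb and Prf1 UMIs was 4 to 8 per cell in the 6 samples, and the highest value in a sample was 28 to 140. Both genes were seen in 483 cells, Gzmb alone in 189 and Prf1 alone in 27. At the threshold, 109 effector cells had exactly 2 of these UMIs and 191 of the other CD8 T cells had 1. A single UMI of Gzmc to Gzmf was seen in 36 effector cells, and 9 of the 52 cells above that limit had exactly 2. Depth differed with the class, as the median UMI count was 3666 to 5465 in the effector cells, 2259 to 3455 in the other CD8 T cells and 3824 to 10065 in the cells with Gzmc to Gzmf. Over the libraries, 52281422 to 84276739 UMIs were deposited per sample, and the effector cells summed to 103952 UMIs in αPD-1 + corin replicate 1, the lowest, and 1883733 in replicate 3, the highest. Of their UMIs, a median of 15.7% to 20.0% were ribosomal and 0.355% to 0.513% were Malat1. Pairs of libraries shared 10 to 32 cell barcodes, and 8 of the 699 effector cells shared a barcode with a kept cell of another library, none of them with an effector cell there.

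Effector cells were counted per sample. The αPD-1 samples held 55, 71 and 53 of them and the αPD-1 + corin samples 25, 67 and 428, so that αPD-1 + corin replicate 3 gave 61.2% of all effector cells. Among T cells they made up 9.31%, 11.1% and 11.3% under αPD-1, against 8.39%, 12.5% and 32.4% under αPD-1 + corin. Replicate 1 of the combination lay below every αPD-1 sample, replicate 2 just above them and replicate 3 far above. The means were 10.6% ± 1.12 and 17.8% ± 12.8 (SD, n = 3 each), and the groups overlapped (two-sided exact permutation test, p = 0.5, 0.75 after Benjamini-Hochberg adjustment over 3 shares). Among CD8 T cells the shares were 19.6%, 21.0% and 21.1% against 19.8%, 27.8% and 44.0%, with means of 20.6% ± 0.820 and 30.5% ± 12.3, and the groups overlapped again (exact permutation test, p = 0.3, adjusted p = 0.75). Of all kept barcodes the effector cells were 1.23%, 1.89% and 1.20% against 0.301%, 1.61% and 8.68% (exact permutation test, p = 0.8, adjusted p = 0.8). With 3 samples against 3 the smallest p is 0.1, and a p above the threshold does not show that the shares were alike. Counting error alone gave 95% Wilson intervals of 13.8% to 27.7% of CD8 T cells for αPD-1 + corin replicate 1 and of 40.9% to 47.1% for replicate 3.

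**Figure D1:**
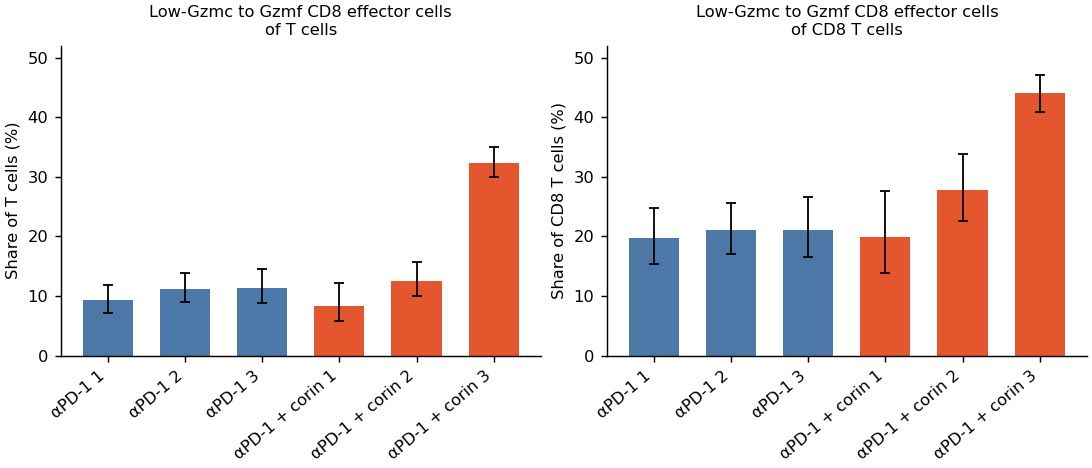
Share of the effector cells among T cells (left) and among CD8 T cells (right) in each sample, in percent, with 95% Wilson intervals as error bars. αPD-1 + corin replicate 3 stands at 32.4% and 44.0%, replicate 1 within or below the range of the αPD-1 samples.

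The higher mean rested on αPD-1 + corin replicate 3 among T cells, where the difference between the means was 7.18 percentage points with it and -0.121 without it. Among CD8 T cells it was 9.96 points with this sample and 3.23 without. Of the 699 effector cells, 504 held 2 or more UMIs of gene lists for B and plasma cells, monocytes and macrophages, neutrophils or melanoma. Whether these UMIs came from other cells was not tested. Among CD8 T cells with fewer than 2 of these UMIs the shares were 12.8%, 12.9% and 14.4% against 20.8%, 42.4% and 48.3%. The difference was 23.8 points without overlap (exact permutation test, p = 0.1, the smallest possible), based on 5 to 139 effector cells per sample. With every limit applied to counts thinned to 1000 UMIs per cell, the shares were 21.9%, 21.1% and 11.4% against 17.5%, 18.1% and 40.2%. The difference between the means was 7.12 points, the groups overlapped, and only αPD-1 + corin replicate 3 lay above the αPD-1 samples.

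The T cell receptor segments of the effector cells set the samples apart. A cell was assigned the Trbv segment with most UMIs, without ties. These are 5′ libraries without receptor enrichment, so segments but no junctions were read, and 458 effector cells had an assigned Trbv. In αPD-1 + corin replicates 2 and 3 the leading segment was Trbv31, which lies in reverse orientation beyond the constant genes of the β locus. It was chosen for description after its values were seen. The last 150 bases of the V exon are given for Trbv31 and for the α segments that went with it in those samples. They come from the GENCODE vM39 transcripts on GRCm39, at chr6:41534627-41534776 (minus strand) for Trbv31, chr14:53854222-53854371 (plus strand) for Trav12-2, chr14:54083135-54083284 (plus strand) for Trav19 and chr14:53607883-53608032 (plus strand) for Trav14n-3. Capitals mark the germline start of the third complementarity-determining region, from the codon of the conserved cysteine to the end of the segment, 13 or 14 bases long, where the junction to the next segment begins.
Trbv31: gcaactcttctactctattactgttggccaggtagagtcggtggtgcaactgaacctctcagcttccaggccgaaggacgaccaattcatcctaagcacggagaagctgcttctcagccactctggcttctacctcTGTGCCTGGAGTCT
Trav12-2: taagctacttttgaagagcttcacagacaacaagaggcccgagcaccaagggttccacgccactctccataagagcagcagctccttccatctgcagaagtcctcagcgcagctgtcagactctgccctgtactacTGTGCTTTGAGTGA
Trav19: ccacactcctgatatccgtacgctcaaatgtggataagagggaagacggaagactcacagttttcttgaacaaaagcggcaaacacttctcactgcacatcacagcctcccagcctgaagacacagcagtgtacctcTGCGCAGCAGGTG
Trav14n-3: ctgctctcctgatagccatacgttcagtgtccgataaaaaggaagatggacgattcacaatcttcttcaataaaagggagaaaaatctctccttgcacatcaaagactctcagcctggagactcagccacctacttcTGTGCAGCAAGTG
Over these 150 bases no other Trbv or Trav segment was more than 42.0% identical to Trbv31 at matched positions, and the nearest to Trav19 was 74.7% identical. Trav14n-3 differed from Trav14-3 at 3 bases and Trav12-2 from Trav12d-3 and Trav12n-3 at 6, so the copies within these α families are uncertain.

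Trbv31 was assigned to 38 of 51 effector cells in αPD-1 + corin replicate 2 (74.5%, 95% Wilson interval 61.1% to 84.5%) and to 139 of 259 in replicate 3 (53.7%, 47.6% to 59.6%). It was assigned to 0 of 15 in αPD-1 + corin replicate 1, which allows a share of up to 20.0%. In αPD-1 replicate 1 it was assigned to 0 of 43, which allows up to 6.98%, in replicate 2 to 1 of 53 and in replicate 3 to 1 of 37. The leading segments of the αPD-1 samples were Trbv13-2 in 9 of 43 cells (20.9%), Trbv19 in 22 of 53 (41.5%) and Trbv12-1 in 18 of 37 (48.6%), a different one in each sample. In αPD-1 + corin replicate 1, Trbv13-1 and Trbv19 led with 3 of 15 cells each. Trbv31 thus led in 2 of the 3 combination samples and was rare or unseen in the other 4 samples. A Trbv31 UMI was found in 2 of 8497 C1q-expressing cells over all samples.

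**Figure D2:**
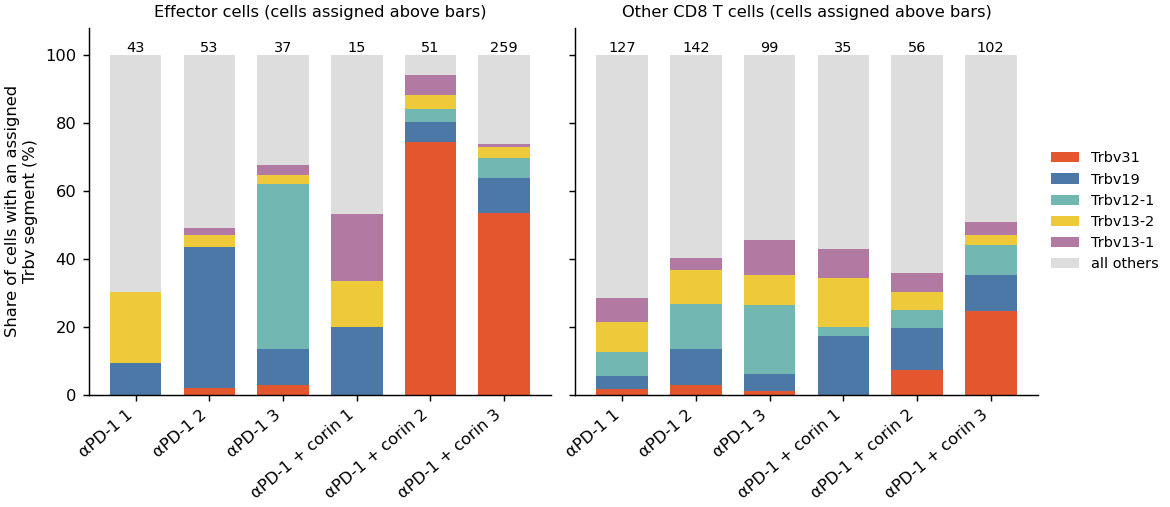
Composition of assigned Trbv segments in the effector cells (left) and in other CD8 T cells (right) of each sample, as a share of the assigned cells in percent, with the number of assigned cells above each bar. Trbv31 fills 74.5% and 53.7% of the bars of αPD-1 + corin replicates 2 and 3 on the left, and 7.14% and 24.5% on the right.

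The α segments beside Trbv31 differed between the samples. In αPD-1 + corin replicate 2, 24 of the 38 Trbv31 cells held a Trav12-2 UMI, 26 a Trav19 UMI and 16 both, and no cell held Trav14n-3. In replicate 3, 90 of the 139 Trbv31 cells held a Trav14n-3 UMI and none held Trav12-2 or Trav19. Trav14n-3 was not particular to these cells, since it also led among the effector cells of αPD-1 replicates 1 and 2, assigned to 9 of 32 in each (28.1%), and among other CD8 T cells of αPD-1 + corin replicate 3 (16 of 75). Among the effector cells with another Trbv, 2 of 13 held Trav12-2 in replicate 2 and 20 of 120 held Trav14n-3 in replicate 3. Without junction sequences, cells of the same clone and cells that share segments cannot be told apart. By the inverse Simpson index, the number of equally common segments that would give the same diversity, the effector cells stood at 7.55, 4.11 and 3.65 under αPD-1, and at 6.82, 1.76 and 3.16 under αPD-1 + corin. The other CD8 T cells stood at 14.8, 12.6 and 11.2 and at 10.1, 12.0 and 8.73. The index was lower in the effector cells than in the other CD8 T cells of each of the 6 samples, where the most frequent segment took 10.2% to 24.5% of assigned cells. Fewer cells lower this index, and cell numbers were not matched. Except in αPD-1 + corin replicate 3 (259 against 102), fewer effector cells than other CD8 T cells had an assigned Trbv.

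Within αPD-1 + corin replicates 2 and 3, Trbv31 cells were set beside effector cells with another Trbv, as a description of 2 samples. The 2 sets held 38 and 13 cells in replicate 2 and 139 and 120 in replicate 3. In replicate 2 the 13 cells gave 103 Xcl1 and 26 Gzma UMIs, and how many cells these came from was not examined. Xcl1, a chemokine that draws cross-presenting dendritic cells, stood at 132 CPM in Trbv31 cells and 1647 in the others in replicate 2, and at 72.8 and 553 in replicate 3. Gzma, which encodes granzyme A, stood at 0 and 416 CPM and at 62.2 and 131 CPM. Both genes were lower in Trbv31 cells of both samples, as were Tcf7, Ccl5, Tox, Pdcd1 and Klrd1, while Havcr2 and Tigit were higher in both. Ifng stood at 468 and 272 CPM in replicate 2 and at 416 and 1035 CPM in replicate 3, which is in opposite order, and so was Prf1, with 919 and 336 against 576 and 622 CPM.

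The state of the effector cells was described against the other CD8 T cells of the same samples. Because the limit on Gzmb and Prf1 divides the same cells, this fit describes how the classes differ beyond the genes of the rule and is not independent of it. In the paired fit (edgeR quasi-likelihood test with the sample as block, 6 samples), 364 of 5680 genes were higher in the effector cells (6.41%) and 510 were lower (8.98%), at an adjusted p under 0.05. These shares of all genes tested are the background for the lists below. With counts thinned to 1000 UMIs before the limits were applied, 125 were higher and 274 lower, and without αPD-1 replicate 2 the counts were 187 and 257. The 8 largest rises were Serpine2 (2.98 ± 0.32 SE on the log2 scale, adjusted p = 6.13e-06), Tnfrsf9, Havcr2, Rgs16, Dscam (1.91), Tmem163 (1.76), Lag3 and the NK receptor gene Klrc1 (1.67). Among the largest falls were Tcf7, Fgf13 (-2.43), Aff3, Lef1, Slamf6, Cmah (-2.12) and Id3. Of these 15 genes, each passed the threshold with the same sign under all 15 or 16 alternatives run for it.

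Inhibitory receptors were among the genes that were higher. Of 20 inhibitory receptor and exhaustion genes, 17 could be tested, 12 were higher and none was lower, with a median log2 difference of 0.96 against -0.02 over all genes tested. Havcr2, which encodes Tim-3, stood at 193, 239 and 166 CPM under αPD-1 and at 125, 228 and 223 CPM under αPD-1 + corin, against 34.3 ± 24.4 CPM (SD, n = 6) in other CD8 T cells (log2 difference 2.38 ± 0.24 SE, edgeR adjusted p = 4.07e-06). Pdcd1, which encodes PD-1 itself, stood at 281, 392 and 266 CPM and at 221, 252 and 347 CPM, against 98.6 ± 60.5 CPM (1.61 ± 0.27, adjusted p = 0.000574). The lowest effector sample of each gene lay above the mean of the other CD8 T cells, and the treatment groups overlapped. Lag3, an inhibitor that binds MHC class II, Tigit and Ctla4, which compete for costimulatory ligands, were higher by 1.74, 1.48 and 1.37 on the log2 scale. Rgs16, a brake on chemokine receptor signalling, was higher by 2.04. Tox, a factor of the exhausted state, stood at 464, 704 and 728 CPM and at 183, 577 and 518 CPM, with a smaller difference of 0.61 ± 0.15 (adjusted p = 0.011).

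UMIs of the receptors and Tox were seen in the same cells. Whether they met more often than their separate frequencies and the depth of the cells would give was not tested. A Pdcd1 UMI and a Havcr2 UMI occurred together in 267 of the 699 cells, Pdcd1 alone in 199, Havcr2 alone in 96 and neither in 137. Tox and Pdcd1 occurred together in 393. Gzmk and Havcr2, markers of earlier and later effector states, occurred together in 137 cells, with Gzmk alone in 124 and Havcr2 alone in 226. After thinning to 1000 UMIs, a Pdcd1 UMI was seen in 16% to 36.6% of effector cells and 2.87% to 16.9% of other CD8 T cells, and a Havcr2 UMI in 12.0% to 28.4% and 1.32% to 6.88%. C1q-expressing cells held Pdcd1 in 0% to 0.520% and Havcr2, which macrophages express as well, in 2.06% to 5.46%.

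**Figure D3:**
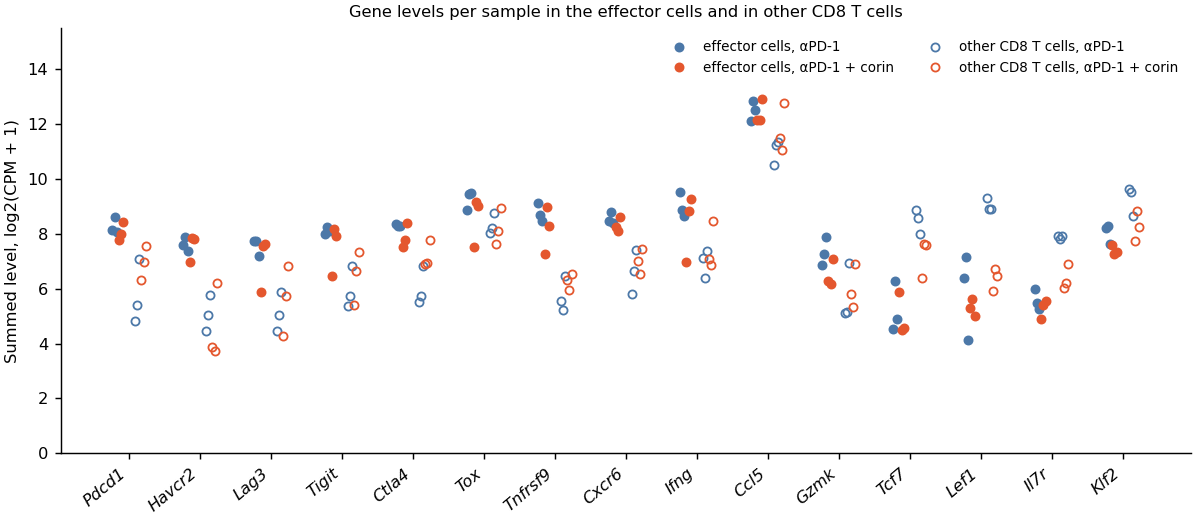
Summed level per sample, as log2(CPM + 1), of 15 genes in the effector cells (filled) and in other CD8 T cells (open), with αPD-1 samples in blue and αPD-1 + corin samples in orange. Havcr2 and Tnfrsf9 are higher in the effector cells of all 6 samples, Il7r lower, and the treatment groups overlap among the filled points of most genes.

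Most granule genes beyond the rule and a few cytokine genes were higher. Of 17 granule and death ligand genes, 16 could be tested, 11 were higher and none was lower (median 0.88). Nkg7, a granule membrane protein needed for degranulation, stood at 2409, 2479 and 1952 CPM and at 1077, 1866 and 2375 CPM, against 937 ± 297 in other CD8 T cells (1.04 ± 0.15, adjusted p = 0.000197). The serpin genes Serpinb9, which encodes a granzyme B inhibitor, and Serpinb6b were higher by 1.49 and 1.28 on the log2 scale. The cathepsin inhibitor Cst7 was higher by 1.12. Gzma was higher by 1.52 ± 0.34 (adjusted p = 0.00482) but uneven, with 3.65, 125 and 216 CPM under αPD-1 and 202, 70.4 and 73.8 CPM under αPD-1 + corin. Of 16 cytokine and chemokine genes, 11 could be tested, and 1, Cxcl10, was lower (-0.94), near the 8.98% of all genes tested. The median was -0.08, and 4 genes were higher, against 6.41% of all genes tested. Those higher were Ccl3, Ccl4, Ccl5 and Ifng, the cytokine of CD8 T cells that raises antigen presentation, which stood at 737, 463 and 404 CPM and at 125, 461 and 613 CPM, against 165 ± 95 CPM (1.5 ± 0.22, adjusted p = 0.000194). αPD-1 + corin replicate 1 was the lowest sample for Nkg7 and Ifng and for Tox and Lag3, and it holds the fewest effector cells, 25.

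Costimulatory receptors, effector factors and glycolysis genes moved in part. Tnfrsf9, which encodes 4-1BB, an activation-induced receptor that sustains CD8 T cells, stood at 562, 417 and 358 CPM and at 154, 510 and 312 CPM, against 66.9 ± 22.7 (2.47 ± 0.24, adjusted p = 3.06e-06). Il2rb, the shared chain of the IL-2 and IL-15 receptors, was higher by 1.00 and Il7r, the receptor chain of resting T cells, was lower by 1.87 on the log2 scale (adjusted p = 9.75e-06). Of 16 effector transcription factors, all tested, 5 were higher, among them Prdm1 (1.23), Bhlhe40 (1.01) and Id2 (0.67), and 1 was lower. Over all genes tested 6.41% were higher and 8.98% lower, so the 1 lower factor is near the overall share. Of 17 glycolysis and hypoxia genes, all tested, 8 were higher and none was lower. The 3 largest of these were Aldoa (1.05), Pgk1 (1.02) and Tpi1 (1.02), enzymes of glycolysis.

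Naive and memory factors were lower. Of 13 such genes, 12 could be tested, 10 were lower and none was higher, with a median of -1.48. Tcf7, which keeps CD8 T cells stem-like, stood at 21.9, 76.5 and 29.1 CPM and at 57.7, 21.8 and 22.8 CPM, against 263 ± 141 CPM in other CD8 T cells (-3.0 ± 0.24, adjusted p = 4.13e-07). Lef1, its partner, differed by -2.22, Id3, a factor of memory cells, by -2.0 and Slamf6, a receptor of stem-like cells, by -2.19. Aff3, which was not on this list, differed by -2.25. Of 22 genes of homing and adhesion, 18 could be tested. Of these, 3 were higher, among them Cxcr6 and the integrin chain Itgb2 (0.63). Another 6 were lower, among them Klf2, a factor of quiescent and recirculating T cells, by 1.22 on the log2 scale. Over all genes tested the shares were 6.41% higher and 8.98% lower.

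Some interferon-stimulated and early response genes were lower in the effector cells. Of 24 interferon-stimulated genes, all tested, 13 were lower and 1, Ly6a, was higher (median -0.55). Over all genes tested, 8.98% were lower and 6.41% higher. Isg15 stood at 197, 146 and 200 CPM and at 269, 187 and 146 CPM in the effector cells, against 294 ± 88.0 CPM (-0.71 ± 0.14, adjusted p = 0.002). Of 20 immediate early and heat shock genes, all tested, 9 were lower and none was higher (median -0.47), with Fos at -0.75 and Junb at -0.78. Malat1 was lower by 0.56 on the log2 scale (adjusted p = 0.000592), and the depth of the cells differed as given above, and the part of either in these differences was not tested.

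**Figure D4:**
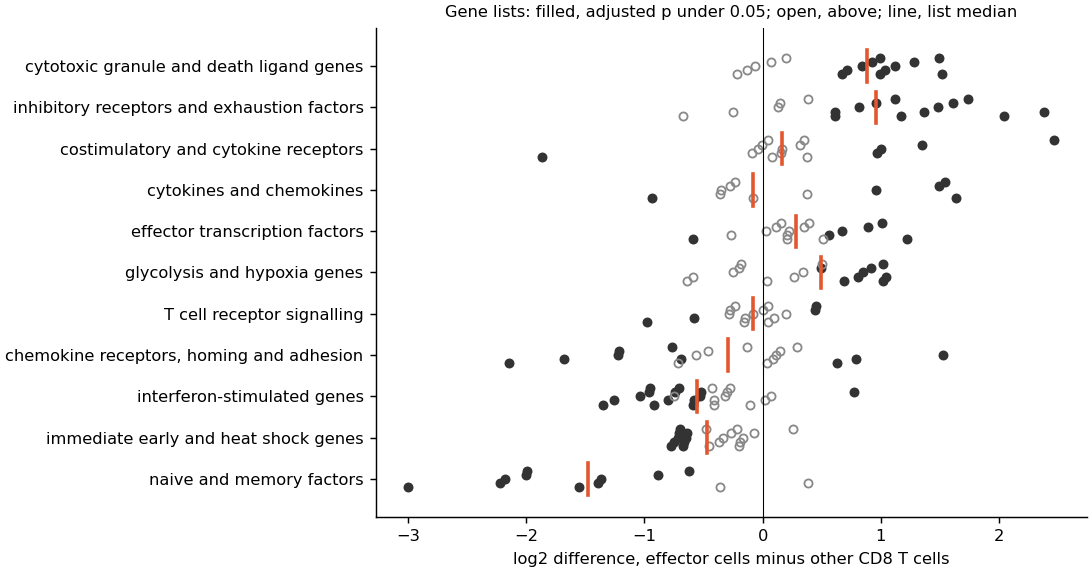
Log2 difference between effector cells and other CD8 T cells for the tested genes of 11 lists, one point per gene, filled where the edgeR adjusted p was under 0.05, with the list median as an orange line. Inhibitory receptors and granule genes lie mostly to the right (medians 0.96 and 0.88) and naive and memory factors to the left (median -1.48).

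Next to the effector cells stood the CD8 T cells with Gzmc to Gzmf, the granzymes of the cluster beside Gzmb on chromosome 14 that appear after strong stimulation. Under αPD-1 there were 7, 8 and 4 of them and under the combination 0, 10 and 23, so αPD-1 + corin replicate 1 could not enter the comparison. In the paired fit of 5 samples, 78 of 3116 genes (2.50%) differed, with 44 higher in the effector cells (1.41%) and 34 lower (1.09%). Without αPD-1 + corin replicate 3 there were 20 and 20. The genes that were lower included receptors and inhibitors that mark strong activation. Il2ra, the high-affinity IL-2 receptor chain, stood at 35.7 ± 13.3 CPM (SD, n = 5) in the effector cells and 172 ± 69.4 CPM in the cells with Gzmc to Gzmf (-2.51 ± 0.30, adjusted p = 6.11e-06). Tnfrsf9, Tnfrsf4 and Tnfrsf18, receptors of the TNF family, differed by -1.43, -1.60 and -1.13, and Serpinb9, Serpinb9b and Serpinb6b by -1.60, -2.81 and -1.57. Serpine2, Nrn1 and AA467197 were lower by 2.53, 2.77 and 2.29 on the log2 scale, and Ldha by 0.61. Dscam, Il1r2 and Myo10 differed by -2.13, -1.85 and -1.68. The effector cells thus stood between the other 2 classes in Tnfrsf9, Serpine2 and Serpinb9, which were higher than in other CD8 T cells and lower than in cells with Gzmc to Gzmf. None of the 15 inhibitory receptor and exhaustion genes tested passed in either direction, with Pdcd1 at -0.36 ± 0.20 and Havcr2 at -0.39 ± 0.21 (SE), which does not show that the classes were alike in them.

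The genes that were higher than in the cells with Gzmc to Gzmf included many of other cell types. All 3 tested genes of the B and plasma cell list were higher, which are the MHC class II genes Cd74, H2-Aa and H2-Ab1, and 5 of 6 tested monocyte and macrophage genes, such as Lyz2 (2.34), Apoe (2.28) and Cst3 (1.85). Lyz2 turned to -0.10 with thinned counts, and Apoe was at 0.093 (edgeR adjusted p = 0.986) with no upper limit on genes. Tgfbi (3.41), Ccl2 (2.89), Ifi213 (2.48), Plbd1 (2.20) and H2-Eb1 (2.12) were among the 8 largest rises as well, ranked under the same limits as before. Cxcl2, a chemokine that draws neutrophils, differed by 3.17 ± 0.27 (adjusted p = 2.41e-08). Tnf (1.90), Klf2 (1.59) and the early response genes Dusp1 (1.19) and Zfp36 (1.08) were higher too. Which cells gave these transcripts was not tested. Malat1 was higher by 0.78 (adjusted p = 0.000536). The class of comparison holds 4 to 23 cells per sample, and with cells that held 2 or more UMIs of other cell types left out, no gene of 574 tested in 3 samples passed in either direction (edgeR, 22 at an unadjusted p under 0.05). Without an upper limit on genes per barcode, 1 gene was higher and 11 were lower. The effect of treatment itself differed between these 2 classes in 7 of 4485 genes (0.156%) by the interaction of class and treatment in edgeR, positive in 4 (0.0892%) and negative in 3 (0.0669%). DESeq2 called 0 (48 at an unadjusted p under 0.05, against 143 in edgeR), and edgeR called 0 without αPD-1 replicate 3, 2 without αPD-1 replicate 1 and 3 without αPD-1 + corin replicate 2.

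Gene levels in the effector cells were then compared between αPD-1 + corin and αPD-1. In the fit of summed counts (edgeR quasi-likelihood test, 3 samples against 3), 0 of 5089 genes passed at an adjusted p under 0.05, and 283 (5.56%) had an unadjusted p under 0.05. DESeq2 called 7 genes higher (Lcn2, S100a8, S100a9, Hcar2, Ccr1, C3 and Egr1) and 1 lower (Aff3). In 699 of the 5089 genes (13.7%) all samples of one group lay on the same side of all samples of the other, with 185 above (3.64%) and 514 below (10.1%) in αPD-1 + corin. This was judged on CPM, without the TMM scaling of the fit. Exchangeable samples, 3 against 3, are split this way at a rate of 0.1 per gene. The shares serve as background for the lists below and are not read as an effect of corin.

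The inhibitory receptors showed no call. Of the 16 tested, 8 had a positive and 8 a negative log2 difference, with a median of 0.02. The difference was -0.07 ± 0.22 (SE) for Pdcd1, 0.11 ± 0.23 for Havcr2, -0.12 ± 0.30 for Lag3 and -0.40 ± 0.31 for Tox. Of the cytotoxic genes, the median was 0.05, with -0.26 ± 0.25 for Nkg7 and -0.61 ± 0.30 for Gzmk. Ifng gave -0.22 ± 0.38. Serpinb6b was the granule gene with the lowest adjusted p, 0.153, and stood at 65.7, 85.7 and 112 CPM under αPD-1 and at 173, 206 and 170 CPM under αPD-1 + corin (log2 difference 1.16 ± 0.23). Its groups did not overlap, as for 3 of the 16 tested granule and death ligand genes above, against 3.64% of all genes tested, and none below, against 10.1%.

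Naive and memory factors had mostly negative differences, none of them past the test. Of 10 tested, 9 had a negative log2 difference, with a median of -0.56, while 49.3% of all genes tested had a positive one. The groups did not overlap in 3 of the 10 (Satb1, Foxp1 and Bcl2), all below in αPD-1 + corin, against 10.1% of all genes tested. Foxp1, which maintains quiescence, stood at 296, 310 and 204 CPM and at 154, 182 and 149 CPM (-0.66 ± 0.21, adjusted p = 0.718). Bcl2, the survival factor, stood at 109, 114 and 121 CPM and at 77.0, 77.6 and 73.3 CPM (-0.52 ± 0.21, adjusted p = 0.844). Aff3 had the lowest adjusted p of the genes below, 0.0526, with 76.6, 97.3 and 112 CPM against 28.9, 26.7 and 15.9 CPM (-2.16 ± 0.32), and every αPD-1 + corin sample lay under every αPD-1 sample. Under 8 of 16 alternatives it passed, with an adjusted p between 7.14e-07 and 0.527 over the 16. The other genes named by the rule below were Scml4, Ubac2, Cd200r1 and Usp3, with differences of -1.16, -0.85, -1.06 and -0.76 and adjusted p-values of 0.433 to 0.712.

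Genes of the CoREST complex were not called either. Of 9, 7 could be tested, and the median difference was -0.05. Kdm1a, which encodes LSD1, stood at 83.9, 60.2 and 104 CPM and at 106, 77.6 and 79.6 CPM (0.13 ± 0.26). Rcor1, the scaffold of the complex, gave -0.05 ± 0.29. Of the 7 tested, 1 lay below without overlap, a share near the 10.1% of all genes tested. This was Hdac1, with 153, 158 and 171 CPM against 125, 138 and 134 CPM (-0.17 ± 0.19). Of 21 tested interferon-stimulated genes, 9 were positive and 12 negative (median -0.02), and of 15 tested glycolysis and hypoxia genes 13 were positive (median 0.23), none of them past the threshold.

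Heat shock genes differed among the combination samples. Hspa1a, the inducible Hsp70, stood at 1044, 848 and 745 CPM under αPD-1 and at 106, 82.5 and 560 CPM under αPD-1 + corin (-1.55 ± 0.52, adjusted p = 0.718). Dnajb1, its cochaperone, stood at 796, 656 and 383 CPM and at 115, 104 and 500 CPM (-1.10 ± 0.48, adjusted p = 0.888). αPD-1 + corin replicates 1 and 2 were far below the αPD-1 samples in both genes, while replicate 3 was below them in Hspa1a and within their range in Dnajb1. Without replicate 3, 61 genes were higher and 7 lower with corin by edgeR. Those lower included Hspa1a (-3.21, adjusted p = 0.000119), Hspa1b (-3.32), Dnajb1 (-2.42) and Hsph1 (-2.43). Those higher included the neutrophil genes S100a8, S100a9, Lcn2, Csf3r, Il1b and Cxcl2, Apoe of the monocyte and macrophage list and Ptgds of the melanoma list. Which cells gave these transcripts was not tested. The summed level of the 6 heat shock genes was 7712, 7324 and 5447 CPM against 2376, 2421 and 6052 CPM.

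Of the 5 genes with the lowest p among those higher under αPD-1 + corin, with at least 50 CPM there, 3 are neutrophil genes. S100a9 gave no UMI in the effector cells of the 3 αPD-1 samples and stood at 1154, 4760 and 254 CPM under αPD-1 + corin (adjusted p = 0.0656), S100a8 at 856, 2237 and 134 CPM, and Lcn2 at 125, 109 and 53.1 CPM (adjusted p = 0.0526). C3, a complement component, stood at 36.5, 16.2 and 16.6 CPM against 48.1, 116 and 120 CPM (2.33 ± 0.38, adjusted p = 0.0656), and Lrmda gave 1.45 ± 0.27 (adjusted p = 0.133). A S100a9 UMI was seen in 20.0%, 35.8% and 4.21% of thinned effector cells of the αPD-1 + corin samples. In C1q-expressing cells of the same samples it was seen in 13.1%, 26.1% and 1.05%. In other CD8 T cells of these samples the share was 28.1%, 50% and 2.65%, so the effector cells lay between these 2 classes in replicates 1 and 2 and above both in replicate 3. Summed over 9 neutrophil genes the level was 192 to 732 CPM under αPD-1 and 1205 to 12786 CPM under αPD-1 + corin, and 7 of the 9 did not overlap, all above. Of the 4 that could be tested, 2 lay above without overlap, against 3.64% of all genes tested. Summed over 8 melanoma genes the level was 40.1 to 121 CPM and 181 to 904 CPM, and all 8 did not overlap. Only 2 of them, Mlana and Dct, could be tested, and both lay above without overlap, against 3.64% of all genes tested. That share does not cover the genes too low to test. The lists for B and plasma cells (11 genes, 2850 to 3333 against 1808 to 9860 CPM) and for monocytes and macrophages (12 genes, 2380 to 4020 against 2696 to 6224 CPM) overlapped. No gene of these lists was at 0 in all effector cells, while S100a8, S100a9, Cxcr2, Retnlg and Hdc of neutrophils and Sox10 of melanoma were at 0 in the effector cells of the 3 αPD-1 samples. The part of other cells' RNA in the differences between the groups was not tested. NK and γδ T cell genes summed to 113 to 266 CPM and 77.0 to 170 CPM, and genes of regulatory and CD4 T cells to 30.1 to 98.5 CPM and 9.62 to 99.5 CPM.

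**Figure D5:**
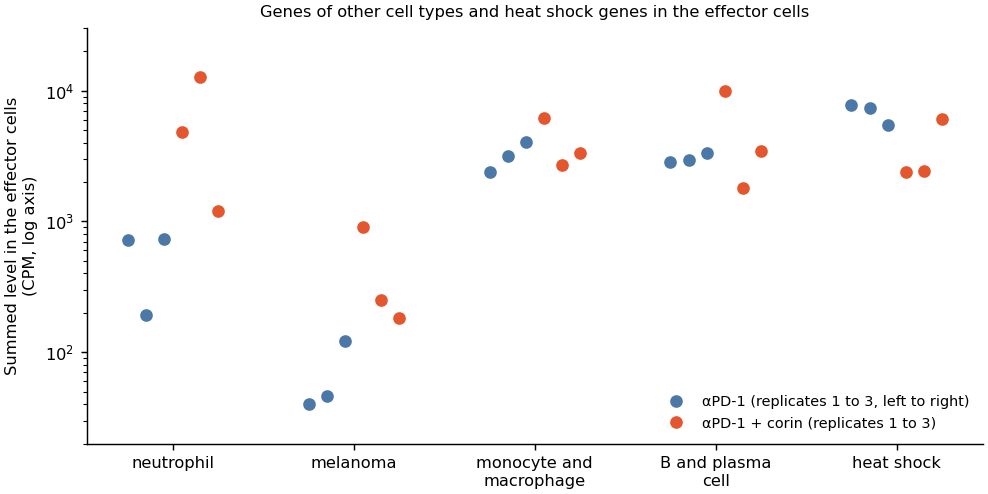
Summed level in the effector cells, in CPM on a log axis, of genes of 4 other cell types and of 6 heat shock genes, 1 point per sample. Neutrophil and melanoma genes lie higher in all 3 αPD-1 + corin samples, and heat shock genes lie lower in αPD-1 + corin replicates 1 and 2 and not in replicate 3.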

How the data were processed

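Single-cell 5′ gene expression libraries (10x GEM-X) of 6 samples were deposited as filtered matrices of UMI counts, which the authors made with Cell Ranger. The counts were not normalized. The 32285 gene IDs were matched to GENCODE vM39 on GRCm39 for positions (31674 matched), and germline segments were read from its transcripts.

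Barcodes were classed by the rule given at the start, with the gene and mitochondrial limits of the study. For each sample, the UMIs of a class were added up, and these sums were tested with edgeR 4.0.16 (TMM, filterByExpr, quasi-likelihood test, Benjamini-Hochberg adjusted p under 0.05 over all genes tested) in R 4.3.3. Those of the 20 genes of the rule that passed the filter stayed in the fit and the adjustment. They were left out of the numbers of genes tested and called. CPM used the summed UMIs. Comparisons between classes had the sample as block. Shares were compared by exact permutation tests in scipy 1.17.1, with 95% Wilson intervals and a floor of 3 counts for a share of 0, both for counting error only. Doublets were not removed. Scrublet (scanpy 1.11.5) marked 0 barcodes by its own threshold in every library, which does not show that there were none. As an alternative the barcodes with the highest scores were left out, 0.4% for each 1000 barcodes in a library.

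Named genes were the markers and genes of the rule, then, for each comparison, up to 8 genes with the largest rises and 8 with the largest falls past the threshold, or the 5 with the lowest p in a direction where none passed. The genes of the lists described were also given. Some genes are not reported here. The cells and gene lists were chosen with earlier results of these data known. The tests were tested on simulated data. Alternatives were other limits, thinned counts, equal cell numbers, cells with UMIs of other types or of Trbv31 left out, DESeq2 1.42.0, RLE size factors, no filter, the replicate block and each sample left out. Leaving out cells with a Trbv31 UMI was added after the data were seen.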

Additional observations from a re-analysis of the deposited data

Results flagged for a closer look

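In 7 genes the difference between αPD-1 + corin and αPD-1 was not the same in the effector cells as in the CD8 T cells with Gzmc to Gzmf, by a test of the difference itself (edgeR interaction of class and treatment, 5 samples). The adjusted p was 0.00459 for Xcl1 (log2 interaction 3.06), 0.0085 for Cd74 (-2.04) and Lars2 (1.53), 0.0125 for Chsy3 (positive), Gm15564 (2.81) and Ifitm1 (negative), and 0.0381 for Hsp90aa1 (-1.30). In the effector cells Xcl1 stood at 321, 51.0 and 91.5 CPM under αPD-1 and at 38.5, 345 and 240 CPM under αPD-1 + corin. In the cells with Gzmc to Gzmf it stood at 803, 80.3 and 415 CPM under αPD-1 and at 16.2 and 122 CPM in αPD-1 + corin replicates 2 and 3, from 1 to 24 UMIs per sample. αPD-1 + corin replicate 1 had no cell of that class. Ifitm1 had 0 UMIs in that class in all 3 αPD-1 samples, and Chsy3 had 0 in both combination samples and 14 of its 15 UMIs in αPD-1 replicate 1, so no size is given for these genes. DESeq2 called 0 genes for this difference, with 48 at an unadjusted p under 0.05 against 143 by edgeR.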

How the results depend on the processing

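Without αPD-1 + corin replicate 3 the difference in the share of T cells was -0.121 percentage points (exact permutation p = 1) and that of all kept barcodes -0.486, and leaving out each sample in turn gave -0.121 to 11.9 points of T cells, 3.23 to 15.3 of CD8 T cells and -0.486 to 3.70 of kept barcodes. Without effector cells holding a Trbv31 UMI the difference among CD8 T cells was -1.29 points, but a fall was fixed by the choice of a segment seen to be frequent in 2 combination samples, and no weight is placed on it. Genes higher and lower with corin in the effector cells, 0 and 0 in the result reported, were 1 and 0 with thinned counts, 1 and 1 without the highest Scrublet scores, 3 and 1 with 25 cells per sample, 7 and 1 by DESeq2 and 166 and 22 of 16466 with no filter on low counts. With 1 sample left out they ranged from 0 to 61 and from 0 to 7, with 5 and 1 without αPD-1 + corin replicate 1, 3 and 1 without replicate 2 and 61 and 7 without replicate 3. With the replicate number as a block they were 8 and 1, and the paired sign-flip p of the shares was 0.5, 0.25 and 1. Same-numbered samples correlated at 0.0566, -0.00869 and -0.108, so the numbers were not read as pairs. Against cells with Gzmc to Gzmf, the 44 higher and 34 lower genes were 4 and 10 with thinned counts (4 samples), 1 and 11 with no upper limit on genes, 0 and 0 without cells holding UMIs of other cell types, 24 and 24 by DESeq2 and 172 and 30 with no filter. They ranged from 20 to 44 and from 20 to 34 with 1 sample left out, with 21 lower without αPD-1 replicate 2 and 20 and 20 without αPD-1 + corin replicate 3. Lyz2 was at -0.10 with thinned counts, against 2.34. Against other CD8 T cells, the 364 and 510 were 125 and 274 with thinned counts, 83 and 66 of 772 without cells holding UMIs of other types, 179 and 241 with no replicate block and 187 and 251 by DESeq2. They ranged from 187 to 405 and from 257 to 509 with 1 sample left out, with 234 and 325 without αPD-1 replicate 1, 187 and 257 without replicate 2 and 246 and 330 without replicate 3. The 7 genes with a different treatment effect were 0 by DESeq2 and 0 to 8 with 1 sample left out, with 0 without αPD-1 replicate 3, 2 without αPD-1 replicate 1 and 3 without αPD-1 + corin replicate 2. Apart from fewer genes or samples tested, the cause was not tested. Depth limited αPD-1 + corin replicate 1 most, with 103952 UMIs in 25 effector cells.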
